A study of Mus musculus with 6 samples.

Results

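Mitochondria are coated by an outer membrane whose proteins carry the organelle along the cytoskeleton, join it to its neighbours and let metabolites through. When a mitochondrion is damaged, ubiquitin is attached to many of these proteins, which marks the organelle for removal by autophagy (mitophagy), and deubiquitinases such as Usp30 take the ubiquitin off again. Chondrocytes, the cells of cartilage, live at low oxygen and rely strongly on glycolysis, and the turnover of their mitochondria has been studied in joint ageing and osteoarthritis. Here 10 genes of this system were examined by their gene names: the outer-membrane proteins Mfn1, Mfn2, Vdac1, Vdac2, Vdac3, Rhot1, Rhot2, Cisd1 and Cisd2, which are ubiquitinated during mitophagy, and Usp30. All 10 were found among the 34709 genes of the expression table, and all 10 were among the 15373 genes tested, which averaged 0.5 FPKM or more (FPKM, the number of sequenced fragments relative to transcript length and to library size).

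The libraries came from articular cartilage of aged mice, 3 labelled knockout (KO) and 3 labelled wildtype. The mice of both groups were 18 months old, the age that the column names carry. Per the methods of the study, KO mice were a purchased line and male littermates were used. The study states in general terms that its samples were independent, but the labels do not tie the libraries to animals, so p-values measure the spread between these libraries, which may be technical. Transcripts were measured, and neither the ubiquitination nor the amount of the proteins.

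Total counts lay between 52268311 and 63331135 per library, and a count of 3 corresponded to at most 0.0574 CPM (counts scaled to the library total), whereas the lowest value of the 10 genes was 12.6 CPM, for Usp30 in KO replicate 3. KO replicates 2 and 3 differed far less than any other pair, with a noise ratio (squared differences of counts relative to Poisson sampling of single reads) of 5.74 against 23.0 to 81.8 for the other 14 pairs. They were averaged and counted as 1 sample, which left 2 KO and 3 wildtype samples, and fits of all 6 libraries as labelled are given beside this comparison. On the first principal component (48.4% of the variance) KO replicates 2 and 3 lay at -33.9 and -33.8, whereas the library labelled KO replicate 1 lay at 13.5, near the wildtype libraries at 16.1 to 20.2. Whether this library carries the knockout is not shown here, so every KO mean rests on its label. Where leaving it out changed a sign or a call or moved a log2 difference by over 1.5 times, the value without it is given.

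The tissue label was checked against 15 chondrocyte genes. Of these, 13 were above 0 in every library, with Matn1 and Matn3 at 0 in at least 1 library, and their summed level was 241.6 to 466.1 FPKM in KO and 267.7 to 312.1 FPKM in wildtype. Markers of erythroid cells and neutrophils were far higher, and those of bone cells also exceeded the chondrocyte sum in every library. The 9 erythroid genes matched of 10 listed, all above 0 in every library, summed to 24953 to 60709 FPKM in KO and 71710 to 108566 FPKM in wildtype. All 12 neutrophil genes were likewise above 0, at 51089 to 62517 FPKM in KO and 27064 to 43829 FPKM in wildtype, and so were all 12 B cell genes, at lower sums of 102.7 to 154.1 FPKM in KO and 313.9 to 355.1 FPKM in wildtype. Skeletal muscle genes (7 of 10 above 0 in every library, with Myh1, Myh2 and Pvalb at 0 in some) summed to 4.58 to 208.7 FPKM in KO and 41.9 to 377.7 FPKM in wildtype, and adipocyte genes (6 of 7, with Lep at 0 in some) to 20.2 to 53.2 FPKM in KO and 74.2 to 212.5 FPKM in wildtype. Osteoblast and osteocyte genes (10 of 10 above 0 in every library) summed to 991.1 to 1108 FPKM in KO and 761.4 to 2085 FPKM in wildtype. Osteoclast genes (7 of 7) summed to 570.0 to 766.8 FPKM in KO and 702.1 to 1500 FPKM in wildtype. Macrophage genes (8 of 8) summed to 283.7 to 357.8 FPKM in KO and 340.2 to 437.3 FPKM in wildtype. T and NK cell genes and endothelial genes summed to at most 128.8 and 48.4 FPKM. In such bulk samples, fewer cells of a type and less RNA per cell cannot be told apart, and the part of these cells in the values of the 10 genes was not tested.

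The levels of the 10 genes were compared first. Vdac1, Vdac2 and Vdac3 encode the voltage-dependent anion channels, the main pores of the outer membrane for ATP, ADP and other metabolites, and they were the most abundant of the 10. Vdac1 (ENSMUSG00000020402, chr11:52360860-52389397, GRCm38, plus strand) was at 49.6, 53.6 and 54.7 FPKM in KO replicates 1, 2 and 3, and at 49.8, 51.6 and 50.8 FPKM in wildtype replicates 1, 2 and 3. Vdac2 (ENSMUSG00000021771, chr14:21825238-21845879, plus strand) was at 31.1, 35.5 and 35.0 FPKM in KO and at 34.2, 28.5 and 30.7 FPKM in wildtype. Vdac3 (ENSMUSG00000008892, chr8:22577075-22593813, minus strand) was at 21.9, 19.5 and 20.2 FPKM in KO and at 20.8, 24.3 and 23.2 FPKM in wildtype. For each of the 3 channels the KO and wildtype libraries overlapped. Together they held 65.7% to 67.7% of the summed FPKM of the 10 genes in every library, and their sum differed little among the wildtype libraries, at 104.8, 104.5 and 104.8 FPKM, against 102.6, 108.6 and 109.9 FPKM in KO.

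**Figure D1:**
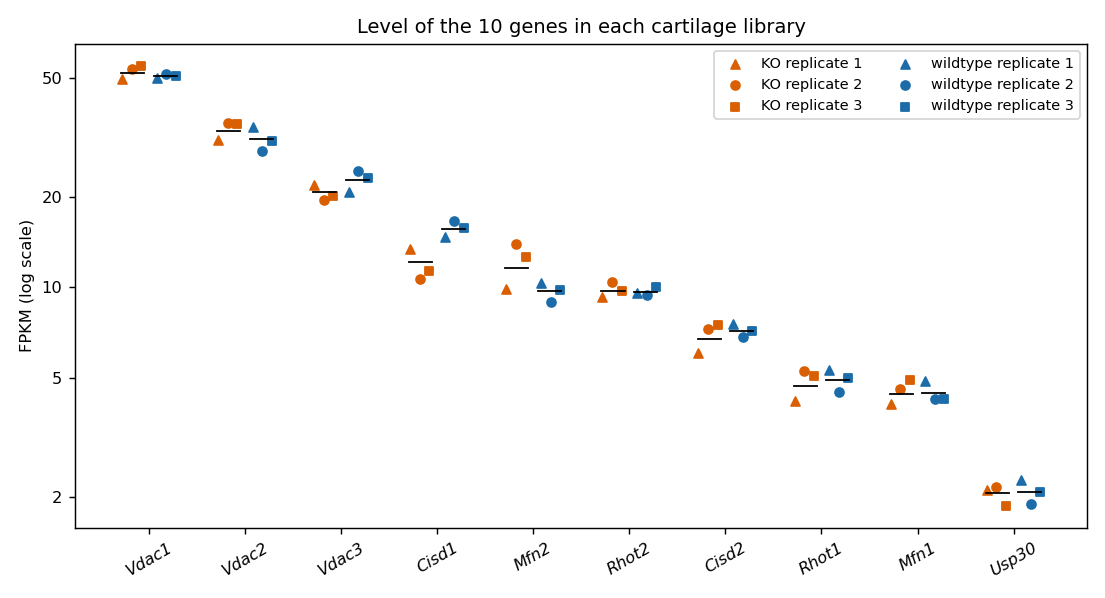
FPKM of the 10 genes (log scale) in each of the 6 libraries, with KO in orange and wildtype in blue, genes ordered by their wildtype mean. Black lines are group means, for KO the mean of replicate 1 and of the average of replicates 2 and 3. Levels span from about 2 FPKM (Usp30) to over 50 FPKM (Vdac1), and the KO and wildtype points overlap for every gene except Cisd1.

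The other genes lay below the channels. Cisd1, which encodes mitoNEET, an iron-sulfur cluster protein of the outer membrane, had 15.7 ± 0.971 FPKM (SD, n = 3) in wildtype. Mfn2, a GTPase that fuses outer membranes and tethers mitochondria to the endoplasmic reticulum, had 9.70 ± 0.709 FPKM there. Rhot2, which encodes Miro2, a GTPase that couples mitochondria to motor proteins, was next at 9.68 ± 0.337 FPKM and overlapped Mfn2 in wildtype. Cisd2, an iron-sulfur protein of the endoplasmic reticulum and of the outer membrane of mitochondria, had 7.15 ± 0.358 FPKM. Rhot1 (Miro1), the paralog of Rhot2, and the mitofusin Mfn1 followed at 4.91 ± 0.410 and 4.45 ± 0.364 FPKM, and also overlapped in wildtype. Usp30 was the lowest with 2.08 ± 0.188 FPKM. All other neighbours in this order were separated in wildtype. The order was the same in all 6 libraries with the exception of Cisd1 over Mfn2 and Mfn2 over Rhot2, each seen in 4 of 6 libraries.

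Some of these levels have limits set by sequence. Vdac3 has a copy on another chromosome, Vdac3-ps1, an unprocessed pseudogene by annotation. Their alignment had 852 columns, the coding length of Vdac3, with 99.2% identity and 4 mismatches. The remaining differences between the gene and its copy were gaps. A stretch of 60 bases of each (GENCODE M21 transcripts, coding bases 389 to 448 of Vdac3 and bases 386 to 445 of the pseudogene transcript) is shown because reads from it can be told apart at 2 bases alone, given in capitals.

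Vdac3: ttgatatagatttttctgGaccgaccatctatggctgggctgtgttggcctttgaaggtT
Vdac3-ps1: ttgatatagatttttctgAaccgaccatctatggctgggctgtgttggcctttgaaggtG

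The copy was listed at 19.5, 15.7 and 16.8 FPKM in KO and at 18.6, 16.0 and 18.8 FPKM in wildtype, close to the level of Vdac3 itself, so the division of reads between the pair, and with it the rank of Vdac3, is uncertain. A second copy of Vdac3, Gm7591 (96.7% identity), reached at most 1.75 FPKM. Rhot2 shared 1228 of its 1860 coding bases without a mismatch with Gm20683, a protein-coding gene annotated over it on the same strand, which had 1.70 to 3.16 FPKM. A copy of Vdac2, Gm7832 (97.0% identity), reached at most 0.324 FPKM, and a copy of Cisd1, Gm8738 (93.6% identity), at most 1.74 FPKM. No copy of at least 90% identity over 200 coding bases was found for Mfn1, Mfn2, Vdac1, Rhot1, Cisd2 or Usp30. Usp30 is overlapped on the opposite strand by Alkbh2 (1.23 to 2.73 FPKM, 795 bases) and by Svop, which was at most 0.0117 FPKM. The libraries mark the strand, but whether the counting used it is not stated, so the low level of Usp30 may hold reads of Alkbh2.

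To ask which of the 10 genes differed between KO and wildtype cartilage, they were taken from an edgeR quasi-likelihood fit over all tested genes. By edgeR with Benjamini-Hochberg adjustment, 0 of the 10 genes passed an adjusted p-value of 0.05, as did 0 of all 15373 tested genes (0%). At an unadjusted p-value under 0.05 the number was 0 of 10, against 13.7% of all tested genes. Of the 10, 6 had higher and 4 lower fitted values in KO. Their median log2 difference was 0.0091 and the median of its size was 0.066, against -0.016 and 0.200 over all tested genes. These include genes of low level. In the fit of genes averaging 5 FPKM or more, the median size over all its genes was 0.165. Of the 10, 7 were tested there, at 0.22 (Mfn2), 0.0029 (Vdac1), 0.062 (Vdac2), -0.15 (Vdac3), -0.027 (Rhot2), -0.38 (Cisd1) and -0.125 (Cisd2). By size, Cisd2 was the middle one of these 7. By limma on log2(FPKM + 1), 1 of the 10, Cisd1, had an unadjusted p-value under 0.05, against 11.7% of all genes. With DESeq2 on the same samples 0 of the 10 were called, against 5.72% of all genes. With the 6 libraries as labelled 0 of the 10 passed the adjusted threshold, against 3.71% of all genes, and 2 of the 10, Mfn2 and Cisd1, had an unadjusted p-value under 0.05, against 22.2%. For these 2 genes the size of the difference ranked above that of 60.9% and 68.8% of all tested genes, and for each of the other 8 above 31.0% or fewer.

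**Figure D2:**
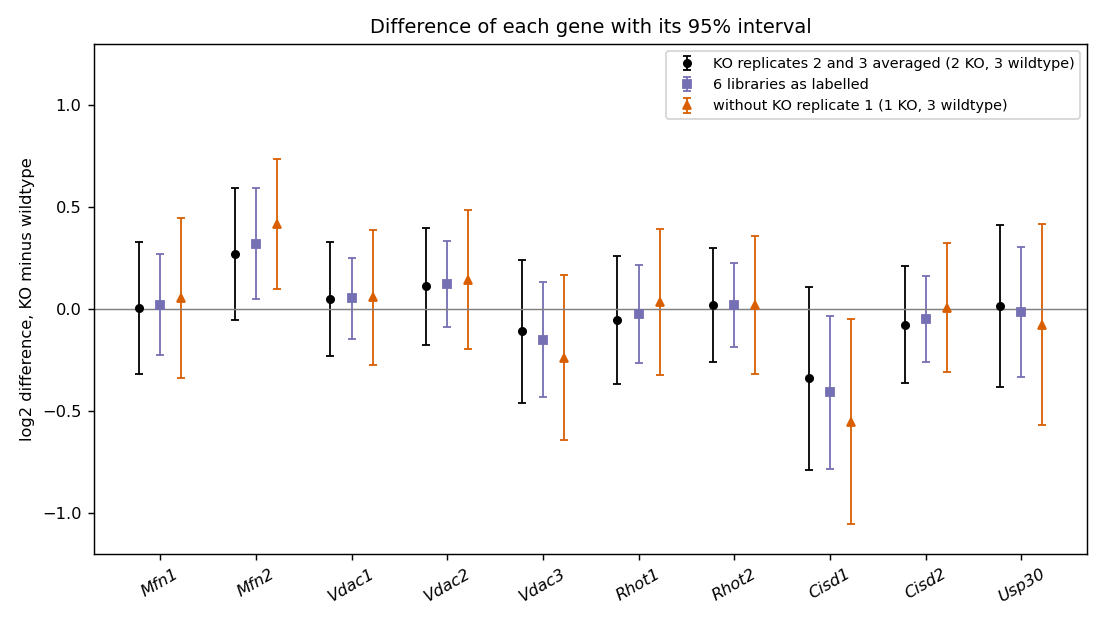
Log2 difference, KO minus wildtype, with 95% intervals from edgeR for the 10 genes in 3 fits: KO replicates 2 and 3 averaged (black circles), 6 libraries as labelled (purple squares) and without KO replicate 1 (orange triangles). All black intervals include 0, and Mfn2 and Cisd1 lie farthest from it, at 0.27 and -0.34.

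Cisd1 had the largest difference of the 10 (ENSMUSG00000037710, chr10:71330480-71344954, GRCm38, minus strand, 1 annotated transcript). It was at 13.4, 10.6 and 11.3 FPKM in KO replicates 1, 2 and 3 and at 14.7, 16.6 and 15.7 FPKM in wildtype replicates 1, 2 and 3. Every KO library was below every wildtype library, and the library labelled KO replicate 1 lay nearest to the wildtype range. Cisd1 was the only one of the 10 whose groups did not overlap, as was seen for 25% of all tested genes. The KO samples averaged 12.2 ± 1.73 FPKM (SD, n = 2) and the wildtype samples 15.7 ± 0.971 FPKM (SD, n = 3), and the fitted log2 difference was -0.34 (SE 0.191, 95% interval -0.79 to 0.11, adjusted p = 0.511 by edgeR). With the 6 libraries as labelled it was -0.41 (SE 0.161, adjusted p = 0.191). Without KO replicate 1 it was -0.55 (SE 0.208, adjusted p = 0.205), where the single KO sample left is assumed to vary like the wildtype samples. Without the merged KO replicates 2 and 3 it was -0.15.

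Mfn2 (ENSMUSG00000029020, chr4:147873599-147904704, minus strand) was the highest of the positive differences. It was at 9.88, 13.9 and 12.6 FPKM in KO and at 10.4, 8.94 and 9.80 FPKM in wildtype. KO replicates 2 and 3 were above every wildtype library, whereas the wildtype range held the library labelled KO replicate 1. Averages were 11.6 ± 2.40 FPKM (SD, n = 2) for KO and 9.70 ± 0.709 FPKM (SD, n = 3) for wildtype, and the fitted log2 difference was 0.27 (SE 0.138, 95% interval -0.056 to 0.59, adjusted p = 0.466 by edgeR). It was 0.32 with the 6 libraries as labelled (SE 0.116, adjusted p = 0.160), 0.42 without KO replicate 1 (SE 0.131, adjusted p = 0.143) and 0.11 without KO replicates 2 and 3.

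Cisd1 and Mfn2 passed the adjusted threshold in a single fit, which was added after seeing the data and left out the library labelled KO replicate 1 while counting KO replicates 2 and 3 as separate samples. There the log2 difference was -0.55 for Cisd1 (SE 0.136, adjusted p = 0.0302 by edgeR) and 0.42 for Mfn2 (SE 0.0837, adjusted p = 0.0149). This made 2 of the 10 genes, against 22.1% of all tested genes. With KO replicates 2 and 3 as 1 sample and KO replicate 1 left out, 0 of the 10 passed, against 2.29%, and 2 of the 10 had an unadjusted p-value under 0.05, against 20.7%. KO replicates 2 and 3 lay outside the range of the other 4 libraries for 5 of the 10 genes, Cisd1 and Vdac3 on the low side and Mfn2, Vdac1 and Vdac2 on the high side, while 47.3% of all tested genes showed such a separation. The marker sums given above also set these libraries apart, with erythroid genes at 25219 and 24953 FPKM in KO replicates 2 and 3 and at 60709 FPKM in the library labelled KO replicate 1. Skeletal muscle genes were at 5.45 and 4.58 FPKM in KO replicates 2 and 3 and at 208.7 FPKM in the library labelled KO replicate 1, and adipocyte genes at 20.6 and 20.2 FPKM against 53.2 FPKM. Chondrocyte genes were at 241.6 and 246.5 FPKM in KO replicates 2 and 3 and at 466.1 FPKM in the library labelled KO replicate 1. In wildtype they were at 267.7 to 312.1 FPKM. The part of these tissues in the values of Cisd1 and Mfn2 was not tested.

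**Figure D3:**
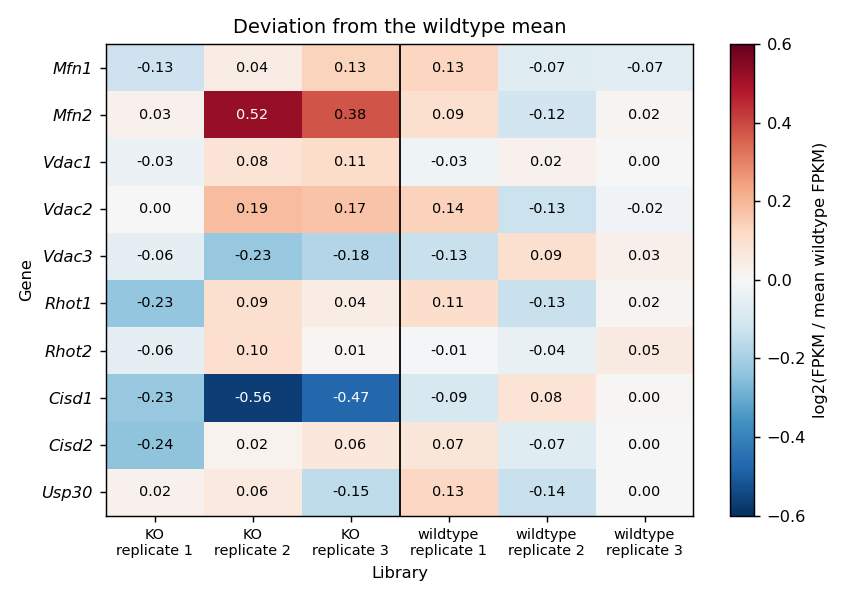
Level of each gene in each library relative to its wildtype mean, as log2(FPKM / mean wildtype FPKM), with KO on the left and wildtype on the right of the line. Mfn2 reads 0.52 and 0.38 and Cisd1 -0.56 and -0.47 in KO replicates 2 and 3, and no other value of the 10 genes exceeds 0.25 in size.

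The channels showed smaller differences. The log2 difference was 0.049 for Vdac1 (SE 0.118, 95% interval -0.23 to 0.33), 0.11 for Vdac2 (SE 0.123, -0.18 to 0.40) and -0.11 for Vdac3 (SE 0.149, -0.46 to 0.24), with adjusted p-values of 0.927, 0.789 and 0.841 by edgeR. In this fit a change of Vdac1 beyond 0.33 on the log2 scale in either direction lay outside its interval. Without wildtype replicate 3 the interval widened to -0.36 to 0.48. For Vdac3 the counts were also summed with those of Vdac3-ps1, which gave -0.093 (SE 0.146, adjusted p = 0.871), and Vdac3 alone was at -0.24 without KO replicate 1 (SE 0.168, adjusted p = 0.473) and turned to 0.016 without the merged KO replicates 2 and 3.

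The Miro GTPases carry mitochondria along microtubules and are removed early when a mitochondrion is tagged, which stops it from moving. Rhot1 (ENSMUSG00000017686, chr11:80209019-80267907) was at 4.19, 5.25 and 5.06 FPKM in KO and at 5.29, 4.48 and 4.97 FPKM in wildtype. The lowest value was that of the library labelled KO replicate 1, and the other KO libraries lay within the wildtype range. Its log2 difference was -0.055 (SE 0.133, 95% interval -0.37 to 0.26) and turned to 0.035 without KO replicate 1. Rhot2 (ENSMUSG00000025733, chr17:25838457-25844851) was at 9.31, 10.4 and 9.76 FPKM in KO and at 9.59, 9.40 and 10.1 FPKM in wildtype. Its groups overlapped, with a log2 difference of 0.019 (SE 0.119, -0.26 to 0.30). Adjusted p-values were 0.926 and 0.979 by edgeR.

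Mfn1, which tethers and fuses outer membranes together with Mfn2 (ENSMUSG00000027668 for Mfn1, chr3:32529465-32579239), was at 4.08, 4.59 and 4.89 FPKM in KO and at 4.87, 4.23 and 4.25 FPKM in wildtype. Its log2 difference of 0.0037 (SE 0.137, 95% interval -0.32 to 0.33, adjusted p = 0.996 by edgeR) was the nearest to 0 of the 10, and was 0.054 without KO replicate 1. Cisd2 (ENSMUSG00000028165, chr3:135406412-135423925) was at 6.04, 7.25 and 7.48 FPKM in KO and at 7.52, 6.81 and 7.13 FPKM in wildtype. The library labelled KO replicate 1 was again the lowest, and the log2 difference was -0.078 (SE 0.121, -0.36 to 0.21, adjusted p = 0.871), which turned to 0.0068 without KO replicate 1. Usp30 (ENSMUSG00000029592, chr5:114065461-114124720), the deubiquitinase that works against the tagging of outer-membrane proteins, was at 2.11, 2.17 and 1.87 FPKM in KO and at 2.27, 1.89 and 2.08 FPKM in wildtype. Its values overlapped throughout, with means of 2.07 ± 0.0676 FPKM (SD, n = 2) and 2.08 ± 0.188 FPKM (SD, n = 3). The log2 difference was 0.014 (SE 0.169, -0.38 to 0.41, adjusted p = 0.988), and its sign changed under 8 of 16 alternatives, among them the fit without KO replicate 1 (-0.077), so no direction is given for Usp30. Its deposited counts, 695 to 927 per library, were among the lowest of the 10 genes, beside those of Cisd1 (811 to 1089).

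Members of a family may replace each other, so the ratio of related genes was taken within each library, which needs no scaling between libraries. Mfn1 to Mfn2 stood at 0.413, 0.329 and 0.388 in KO and at 0.471, 0.473 and 0.434 in wildtype. All KO ratios were below all wildtype ratios. For single genes, groups did not overlap in 25% of all tested genes, and no such share was taken for ratios. The mean log2 ratio differed by -0.26 in KO. Its exact two-sided permutation p was 0.2 (2 against 3 samples, the smallest that this design allows), or 0.75 when adjusted over the 5 ratios. With 3 against 3 libraries the difference was -0.29 and p was 0.1, again the smallest possible, and 0.5 when adjusted. Neither design can reach 0.05.

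Cisd2 to Cisd1 stood at 0.451, 0.683 and 0.661 in KO and at 0.512, 0.409 and 0.453 in wildtype. KO replicates 2 and 3 were above the wildtype range, which held the library labelled KO replicate 1, with a difference of 0.27 on the log2 scale (exact permutation p = 0.6) that was 0.56 without KO replicate 1. The summed level of the pair was 19.5, 17.9 and 18.8 FPKM in KO and 22.2, 23.4 and 22.9 FPKM in wildtype, with no overlap. Cisd1, the larger part of this sum, did not overlap by itself, whereas Cisd2 overlapped. Of all tested genes, 25% did not overlap. Among the channels, the log2 difference of the ratio was 0.062 for Vdac2 to Vdac1 (exact permutation p = 0.8) and -0.16 for Vdac3 to Vdac1 (exact permutation p = 0.4), which was -0.29 without KO replicate 1. For Rhot1 to Rhot2 it was -0.078 (exact permutation p = 0.6), which turned to 0.015 without that library. In these 3 ratios the groups overlapped.

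**Figure D4:**
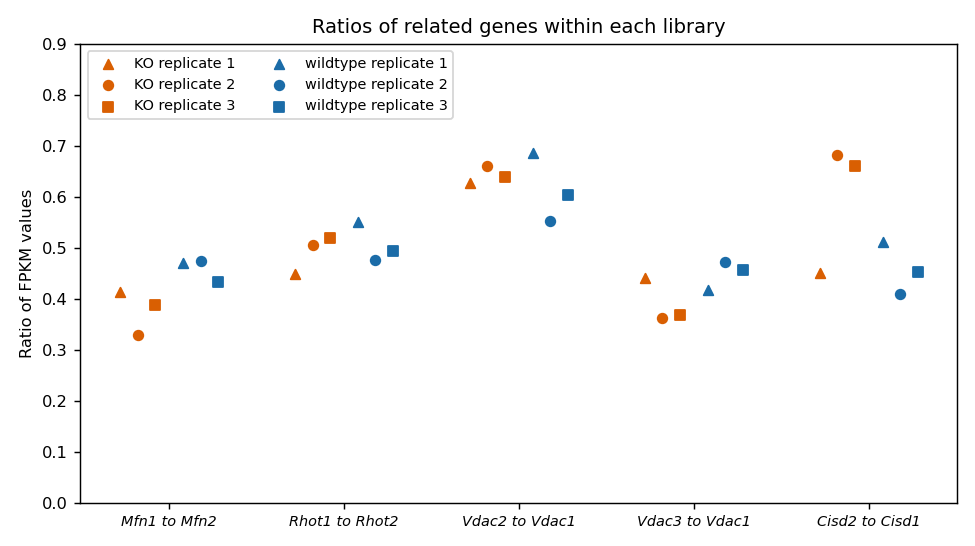
Ratio of FPKM values of related genes within each of the 6 libraries, with KO in orange and wildtype in blue. The Mfn1 to Mfn2 ratio is 0.329 to 0.413 in KO and 0.434 to 0.473 in wildtype, and the other 4 ratios overlap between the groups. For single genes, groups do not overlap in 25% of all tested genes.

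The genes of the surrounding pathway were then counted from fixed lists, with the pair of smallest p-values named from each. No gene of any list passed the adjusted threshold in the comparison of 2 KO and 3 wildtype samples. With the 6 libraries as labelled, only Marchf5 and Hk2 of the 86 tested genes of the 9 lists passed it, while 3.71% of all tested genes did. Where the groups of a gene named below did not overlap, the same was seen for 25% of all tested genes. Of 16 tested genes of ubiquitin-driven mitophagy (ubiquitin genes, autophagy receptors and their partners), 9 were higher and 7 lower, with a median log2 difference of 0.021. With the 6 libraries as labelled this median turned to -0.026. The GTPase Rab7, which drives late endosomes to lysosomes, was at 79.5, 107.2 and 106.5 FPKM in KO and at 81.7, 73.6 and 78.3 FPKM in wildtype (log2 difference 0.27, SE 0.144). The autophagy receptor Optn had a log2 difference of -0.21 (SE 0.122). Of the 7 tested receptors and regulators of receptor mitophagy, which act on mitochondria without this tagging, 5 were higher and 2 lower. Their median was 0.096, and -0.0091 with the 6 libraries as labelled, where Bnip3 and Fkbp8 turned to -0.089 and -0.0091. Bnip3 was at -0.63 without KO replicate 1 and at 0.62 without KO replicates 2 and 3. Nlrx1, a mitochondrial protein of innate immunity, was at 7.21, 11.2 and 10.9 FPKM in KO against 5.44, 7.00 and 6.29 FPKM in wildtype, without overlap (0.55, SE 0.200, adjusted p = 0.289 by edgeR). Bnip3l, the receptor known for clearing mitochondria from maturing red cells, was at 66.8, 52.4 and 51.8 FPKM in KO against 79.8, 75.1 and 91.8 FPKM in wildtype, also without overlap (-0.44, SE 0.187, adjusted p = 0.365). The erythroid marker sum was likewise lower in every KO library than in every wildtype library, and its part in the value of Bnip3l was not tested.

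Other enzymes can attach ubiquitin to the outer membrane. Of 8 such tested ligases or ligase subunits 3 were higher and 5 lower, with a median of -0.14. Marchf5, a ligase anchored in the outer membrane that acts on mitofusins and fission factors, was at 30.7, 29.3 and 26.9 FPKM in KO and at 42.5, 37.6 and 45.9 FPKM in wildtype. All KO libraries, replicate 1 included, were below all wildtype libraries. The log2 difference was -0.49 (SE 0.137, adjusted p = 0.202 by edgeR), and with the 6 libraries as labelled -0.53 (SE 0.111), which passed the threshold (adjusted p = 0.0472). In that fit 3.71% of all tested genes passed. Fbxo7, a substrate adaptor of a ubiquitin ligase, had a log2 difference of -0.40 (SE 0.159, adjusted p = 0.334). Among 6 other deubiquitinases linked to mitophagy, 1 was higher and 5 were lower, with a median of -0.034. With the 6 libraries as labelled the median was 0.031, and Usp14, Usp33 and Atxn3 turned to 0.057, 0.016 and 0.047. The pair named by the rule was Usp15 (-0.28, SE 0.143) and Usp8 (0.15, SE 0.152).

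Partners of the 10 genes in shape and movement were next. Of 9 tested fusion and fission genes 5 were higher and 4 lower, with a median of 0.021. Oma1, the stress protease that cuts the inner-membrane fusion GTPase, had a log2 difference of 0.23 (SE 0.151), and the fission adaptor Mief2 one of 0.14 (SE 0.189). Of 7 tested transport genes, which include the adaptors and motors bound by the Miro GTPases, 1 was higher and 6 were lower, with a median of -0.15. Trak2, an adaptor between Miro and motor proteins, was at 31.8, 37.9 and 37.1 FPKM in KO and at 50.5, 38.1 and 52.4 FPKM in wildtype. Its groups did not overlap but came within 0.5 FPKM of each other (-0.42, SE 0.170, adjusted p = 0.340 by edgeR). The mitochondrial myosin Myo19 had a log2 difference of -0.32 (SE 0.202).

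Of 14 genes whose products bind or regulate the VDAC channels, 7 were higher and 7 lower, with a median of 0.016. Hk2, a hexokinase that docks on VDAC and starts glycolysis, was at 7.04, 11.4 and 11.9 FPKM in KO and at 5.85, 5.07 and 5.86 FPKM in wildtype. Every KO library was above every wildtype library, and the library labelled KO replicate 1 lay nearest to wildtype. The log2 difference was 0.75 (SE 0.190, adjusted p = 0.182 by edgeR), and with the 6 libraries as labelled 0.84 (SE 0.171), which passed the threshold (adjusted p = 0.0441). As above, 3.71% of all tested genes passed in that fit. Tspo, an outer-membrane protein that binds cholesterol, was at 136.3, 190.3 and 185.1 FPKM in KO and at 94.1, 129.9 and 106.6 FPKM in wildtype, with no overlap (0.56, SE 0.195, adjusted p = 0.276). The neutrophil marker sum was also higher in every KO library than in every wildtype library, and its part in the values of Hk2 and Tspo was not tested.

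Of 10 genes of the import and assembly machinery of the outer membrane 4 were higher and 6 lower. Tomm6, a small subunit of the import pore, was at 27.5, 11.3 and 32.0 FPKM in KO and at 16.2, 16.8 and 15.0 FPKM in wildtype. KO replicates 2 and 3, alike in nearly all else, were the lowest and the highest of the 6 libraries here. The log2 difference was 0.64 (SE 0.181, adjusted p = 0.203 by edgeR) with this pair averaged, and 0.56 (SE 0.349, adjusted p = 0.402) with the 6 libraries as labelled. Tomm5 had a log2 difference of -0.27 (SE 0.252).

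The list nearest to Cisd1 and Cisd2, made of iron-sulfur cluster genes and of Cisd3, had 1 higher and 8 lower genes of 9 tested, with a median log2 difference of -0.26 against -0.016 for all genes. Isca1, a late-acting assembly factor, was at 16.2, 10.4 and 10.4 FPKM in KO and at 21.1, 19.6 and 26.9 FPKM in wildtype, with no overlap (-0.73, SE 0.248, adjusted p = 0.266 by edgeR). Glrx5, the glutaredoxin that passes on assembled clusters, was at 28.4, 16.8 and 15.3 FPKM in KO and at 25.7, 31.3 and 36.9 FPKM in wildtype, so that the wildtype range held the library labelled KO replicate 1 (-0.46, SE 0.287, adjusted p = 0.565). Cisd3, the relative of Cisd1 inside the mitochondrion, was at 2.64, 3.04 and 2.43 FPKM in KO and at 5.90, 3.38 and 2.76 FPKM in wildtype, and its groups overlapped. Iron-sulfur clusters are needed in quantity by maturing red cells, and the erythroid marker sum was lower in KO as given above. Its part in the values of this list was not tested.

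Several of these differences changed when the library labelled KO replicate 1 was left out, most of those named below becoming larger and those of Tomm6 and Mief2 smaller. Without it, 1 of the 86 tested genes of the 9 lists was called, Hk2, at a log2 difference of 1.02 (SE 0.137, adjusted p = 0.0358 by edgeR), while 2.29% of all tested genes were called in that fit, in which the single KO sample is assumed to vary like the wildtype samples. The log2 difference was then -1.15 for Isca1 (SE 0.216, adjusted p = 0.0531), -1.001 for Glrx5 (SE 0.236), -0.69 for Bnip3l (SE 0.177), -0.64 for Fbxo7 (SE 0.138), -0.46 for Tomm5 (SE 0.314), 0.42 for Rab7 (SE 0.136), 0.40 for Tomm6 (SE 0.182), 0.34 for Usp8 (SE 0.137) and 0.0093 for Mief2 (SE 0.229). None of these 9 passed the adjusted threshold. Without KO replicates 2 and 3 instead, 0 of the 86 were called, and Hk2 was at 0.41 (SE 0.147), Isca1 at -0.40 (SE 0.211), Glrx5 at -0.065 (SE 0.229) and Usp8, with its sign turned, at -0.053 (SE 0.145).

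**Figure D5:**
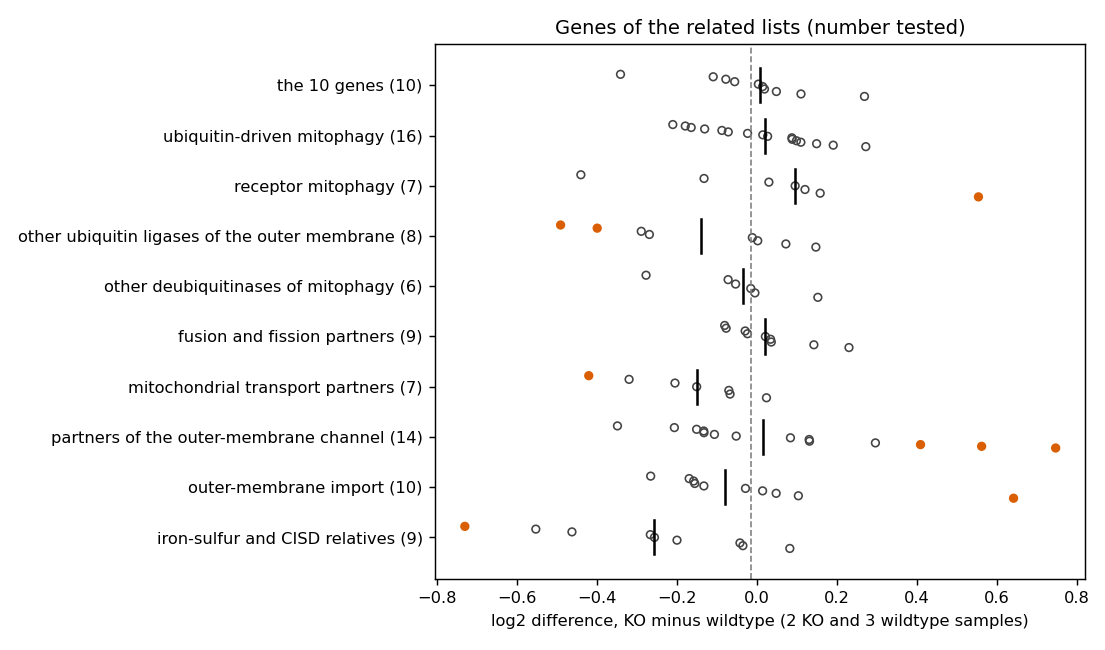
Log2 difference, KO minus wildtype (2 KO and 3 wildtype samples), of each tested gene of the 10 genes and the 9 related lists, with the number tested in brackets. Black bars are list medians, the dashed line is the median of all tested genes (-0.016), and filled orange points had an unadjusted p-value under 0.05, which held for 13.7% of all tested genes and for 0 of the 10 genes.

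The profile of each of the 10 genes over the 5 samples was compared with those of the other listed genes, 95 in all, by the root mean square difference of centred log2 CPM. The smallest difference was that of Mfn2 and Rab7, at 0.020. Rhot1 was nearest to the autophagy receptor Nbr1 (0.026), Cisd2 to Rhot1 (0.035), Vdac3 to the fission receptor Mff (0.036), Mfn1 to the deubiquitinase Usp33 (0.038), and Vdac1 and Rhot2 to each other (0.042). Cisd1 was nearest to the ubiquitin ligase Siah1a (0.049) and Vdac2 to the receptor Tax1bp1 (0.054). Usp30 had the least similar partner, Vdac2, at 0.092. None of the 10 had a paralog as its nearest gene, and with 5 samples these values only describe the libraries.

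The promoters were examined for motifs known from genes of mitochondrial proteins. RefSeq promoter windows (GRCm38.p6, 250 bases before to 50 bases after the start) were on hand for 8 of the 10 genes, Vdac2 and Vdac3 being the exceptions. The median GC content of their 11 windows was 64.7%, against 52.7% over 32851 windows. The motif of NRF1, a regulator of nuclear genes for mitochondria, searched as GCGCA followed at once by its reverse complement, was found on either strand in 1 of 8 genes, Cisd1, against 1.07% of 27025 genes. CCGGAAG, the core bound by ETS factors, was found in 4 of 8 genes against 9.93%. AAGATGGC, bound by YY1, and the E-box CACGTG were found in 0 of 8, against 3.19% and 8.09%. The 5 matches are shown with their surroundings as 30 bases of the gene's strand, motif in capitals, because they are the only matches found.

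Cisd1 (NRF1 motif, chr10:71344899-71344928, minus strand): tggaccagctGCGCATGCGCgactctaccg
Mfn1 (ETS motif, chr3:32529427-32529456, plus strand): gatccgaagcgCCGGAAGtagccgccccta
Rhot2 (ETS motif, chr17:25844565-25844594, minus strand): tgtgggcgggaCCGGAAGcttgggtgaggg
Usp30 (ETS motif on the opposite strand, chr5:114100256-114100285, plus strand): ggtgtgactaaCTTCCGGtccgtcctcctg
Vdac1 (ETS motif, chr11:52360735-52360764, plus strand): cgctctgtgtgCCGGAAGctcccctccccc

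The motif began 69 bases before the RefSeq start in Cisd1, 44 in Mfn1, 58 in Rhot2, 66 in Usp30 and 105 in Vdac1. In Cisd1 and Rhot2 these bases overlap an exon of the gene in GENCODE M21, whose transcripts begin farther upstream. In Usp30 they overlap no exon but lie inside the gene span given above, which begins upstream at chr5:114065461. No motifs overlapped each other. The matches are letters in these windows, and binding was not measured.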

How the data were processed

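RNA-seq of mouse articular cartilage was analysed from 6 libraries, grouped by sample titles as KO and wildtype. The gene knocked out is not reported here. The authors deposited FPKM values, computed within each library, and estimated counts, given as whole numbers, per gene and library. Per the submitters' processing notes, UMI-tools, cutadapt 1.9, HISAT2 2.0.4 and StringTie 1.3.4d were used. The strand setting and annotation release are not given in the sources used here. All 10 genes had the same coordinates in GENCODE M21 (GRCm38). Low counts piled up at 4, so a count may not be a single read pair, and 0 per-sample columns were left unused. Columns of gene annotation were not used.

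KO replicates 2 and 3 were averaged (counts rounded). Genes averaging 0.5 FPKM or more were tested with edgeR 4.0.16 (R 4.3.3), TMM scaling, the quasi-likelihood F test and Benjamini-Hochberg adjustment over all tested genes, called at an adjusted p-value under 0.05. Standard errors were derived from the F statistic. Related genes were compared by exact two-sided permutation of log2 FPKM ratios (scipy 1.17.1). Near copies were searched with blastn 2.17.0 among GENCODE M21 transcripts. Fits were tested on simulated data. The 10 genes and all lists were chosen with earlier results of these data known. All 10 genes are named, with the 2 smallest p-values of each list and the gene most alike. Cisd3, Vdac3-ps1 and other copies were named outside this rule. Alternatives were other scalings, filters, pseudocounts, DESeq2 1.42.0, limma 3.58.1, counts divided by 4, a replicate block, and leaving out libraries (for the listed genes added after seeing the data). Outside that block, replicate numbers were not used to pair libraries, and whether they pair them is not known. Totals of 52268311 to 63331135 counts limit precision, and sampling floors cover counting error only.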

Additional observations from a re-analysis of the deposited data

How the results depend on the processing

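The number of all genes called was 0 and stayed at 0 with median-of-ratios scaling, a minimum of 5 FPKM, limma with either pseudocount and counts divided by 4. It was 570 with the 6 libraries as labelled, 21 without a filter, 880 with DESeq2, and 3405 with the 6 libraries as labelled without KO replicate 1 (added after seeing the data). With single libraries or the merged pair left out it ranged from 0 to 352, and was 352 without KO replicate 1, 9 without the merged KO replicates 2 and 3, and 1 each without wildtype replicate 2 or 3. The number of the 10 genes called was 0 under all of these except the last-named 6-library fit, where it was 2. At a minimum of 5 FPKM, Mfn1, Rhot1 and Usp30 were not tested. The replicate block, fitted on the 6 libraries, called 0 genes and 0 of the 10. Deviations of same-numbered libraries from their group means had correlations of -0.145, -0.108 and -0.0581. Since KO replicates 2 and 3 were nearly alike, these values cannot decide whether the numbers pair the libraries.

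Mfn2, Vdac1, Vdac2 and Cisd1 kept their sign under all alternatives run, at 0.11 to 0.42, 0.0029 to 0.089, 0.062 to 0.16 and -0.55 to -0.15. The other 6 changed sign in at least 1 fit. Mfn1 was -0.012 and -0.015 with limma (pseudocounts of 1 and 0.1 FPKM), and with samples left out ranged from -0.043 to 0.054, with -0.019 without KO replicate 3, -0.0052 and -0.018 without wildtype replicates 2 and 3, and -0.043 without the merged pair. Usp30 was -0.015 with the 6 libraries, -0.018 with the replicate block, -0.0046 and -0.0056 with limma, -0.077, -0.035 and -0.024 without KO replicate 1, KO replicate 2 and wildtype replicate 2, and -0.073 in the 6-library fit without KO replicate 1, with a range of -0.077 to 0.063 over single libraries left out. Rhot2 was -0.027 at a minimum of 5 FPKM, and -0.0037 and -0.0086 without KO replicate 2 and wildtype replicate 1. Without KO replicate 1, Rhot1 was 0.035 and Cisd2 0.0068, and in the 6-library fit 0.038 and 0.0096. Vdac3, at -0.11, was -0.24 without KO replicate 1 and 0.016 without the merged pair. Without the merged pair Rhot1 was -0.15, Cisd2 -0.16 and Usp30 0.11. The log2 ratio of Rhot1 to Rhot2 ranged from -0.12 to 0.015 and that of Vdac2 to Vdac1 from -0.012 to 0.15 with libraries left out, where 0.015 was without KO replicate 1 and -0.012 without wildtype replicate 2. Over single libraries left out, Rhot1 ranged from -0.093 to 0.035, Rhot2 from -0.0086 to 0.056 and Cisd2 from -0.089 to 0.0068. The cause of these turns was not tested.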
